A study of Rattus norvegicus with 8 samples.

Results

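Interferon response genes were followed in the inguinal adipose cells of rats fed an obesogenic diet. They were named as 43 gene symbols: genes known to be induced by interferon, the factors that induce them, and antigen presentation genes that follow interferon. Every table row carrying one of these symbols was taken, which gave 40 of the 18236 genes in the adipocyte table and 38 of the 14295 genes in the stem cell table. Rigi is a second name of Ddx58 and was analysed under Ddx58, Oas3 and Irf9 were analysed in adipocytes alone, and Isg15 and Rtp4 were not analysed here. No symbol was repeated in a table, and no member was without reads in any library.

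Interferons are secreted proteins that cells release when they sense foreign or misplaced nucleic acid. Type I interferons signal through the receptor pair Ifnar1 and Ifnar2 to a transcription complex that holds Stat2 and Irf9 and binds the interferon-stimulated response element (ISRE) in target promoters. Interferon gamma signals through Ifngr1 and Ifngr2, and its targets carry the gamma-activated site (GAS). The targets degrade viral RNA, block viral translation and budding, tag proteins with ISG15 and raise class I antigen presentation, and cells of adipose tissue, macrophages among them, can express them.

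The cells came from the inguinal fat of WT Wistar rats that ate a high-fat sucrose (HFS) or a control (C) diet for 6 months. Adipose-derived stem cells (ASC), adipocyte precursors freed from the tissue with collagenase and grown in culture, were sequenced as such, and adipocytes (AD) were sequenced after being differentiated from them in culture. Differentiation used 3 days of induction with dexamethasone, 3-isobutyl-1-methylxanthine and insulin, then 7 days in insulin alone. The groups were HFS adipocytes, control adipocytes, HFS stem cells and control stem cells, with 2 libraries each and 8 in all, and no label ties a library to an animal or a culture. P-values therefore measure the spread between these libraries, which may be technical.

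Depth differed greatly between the tables. The adipocyte libraries held 76083827 to 119555051 reads and the stem cell libraries 992618 to 7290961, with the second HFS stem cell library the shallowest. In that library 3 reads, taken as the floor of detection, equal 10.9 normalized counts. Libraries of a group differed by more than sampling noise in every group, but not equally. The median chi-square per gene between the pair was 1.39 for HFS adipocytes and 18.3 for control adipocytes, and it was 1.87 for HFS stem cells and 4.47 for control stem cells. Values are given as normalized counts, reads scaled for library size within a table, so levels are compared within a table and never between adipocytes and stem cells. Differences on the log2 scale are of the deposited, variance-stabilized values, which compress the change of genes with few reads. The fold given beside them is the ratio of mean normalized counts. A gene is called higher or lower where limma's adjusted p over all genes of the table was below 0.05.

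The adipocyte marker list took 2.97% to 2.98% of reads in HFS adipocytes and 2.62% to 2.99% in control adipocytes, and 0.427% to 0.561% in HFS stem cells and 0.215% to 0.566% in control stem cells. Markers of macrophages were present in all 8 libraries. The 23 listed macrophage and myeloid genes together took 0.417% and 0.419% of reads in HFS adipocytes, against 0.0471% and 0.0895% in control adipocytes, and 0.400% and 0.421% in HFS stem cells, against 0.155% and 0.164% in control stem cells. In both tables, 14 of the 23 were called higher in HFS (60.9%, against 1.31% of all genes in adipocytes and 9.41% in stem cells). All 23 had a difference above 0 in both tables, against 47.8% and 46.3% of all genes. Their part in the differences described here was not tested. Endothelial markers differed in stem cells, where they took 0.188% to 0.208% of reads in HFS and 0.0547% to 0.113% in control libraries. Of the 13, 9 were called higher there (69.2%, against 9.41% of all genes). Mesenchymal progenitor markers took 5.82% and 6.24% of reads in HFS stem cells, against 3.17% and 3.68% in control stem cells. Of these 13, 4 were called higher in stem cells (30.8%, against 9.41% of all genes) and 3 lower (23.1%, against 9.70%). They took 1.92% and 1.95% of reads in HFS adipocytes, against 1.60% and 2.83% in control adipocytes. In such bulk cultures, more cells of a type and more RNA per cell cannot be told apart.

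In adipocytes, the HFS value of nearly every interferon response gene was above the control value, mostly by less than 2-fold. Of the 40 members, 36 had a log2 difference above 0 (90%, against 47.8% of all 18236 genes), and in 34 both HFS libraries stood above both control libraries (85%, against 24.2%), while in 3 both stood below (7.5%, against 23.5%). The median member had 1.48 times as many normalized counts in HFS adipocytes as in control adipocytes. Few single genes passed the test: 5 of 40 were called higher (12.5%, against 1.31% of all genes) and 0 were called lower (against 0.0329%), while 32 of 40 had an unadjusted p under 0.05 (80%, against 13.9%). The called genes were Oas2, Oas3 and Oasl of the oligoadenylate synthetases, Bst2 and Ifi27. The adipocyte calls depend on which libraries enter. All were lost, among the members and among all genes, when either HFS library was left out. When either control library was left out, many more were called, among the members and all genes alike. In these runs log2 differences ran between 1.47 and 1.60 for Oas2, between 0.904 and 1.10 for Oas3 and between 0.877 and 0.953 for Oasl. They ran between 1.19 and 1.45 for Bst2 and between 0.701 and 0.780 for Ifi27. Only Oas2 and Bst2 were called by limma-voom on the recovered reads.

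In stem cells the list split. Of the 38 members, 8 were called higher in HFS (21.1%, against 9.41% of all 14295 genes) and 4 were called lower (10.5%, against 9.70%). The higher ones were Oasl, Ifit1, Rsad2, Ifit3, Cmpk2, Gbp2, Irf1 and Nlrc5, and the lower ones Lgals3bp, Oas1a, Stat2 and Ifi35. The share called higher was above that of all genes, and the share called lower was near it. Differences above 0 were found in 21 of 38 (55.3%, against 46.3%), 18 had an unadjusted p under 0.05 (47.4%, against 33.3%), and the median log2 difference was 0.10. The groups did not overlap for 17 members with HFS above control (44.7%, against 28.5%) and for 13 with HFS below control (34.2%, against 32.5%). Leaving out any 1 of the 4 stem cell libraries left 0 members called, as it left 0 of all genes called.

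**Figure D1:**
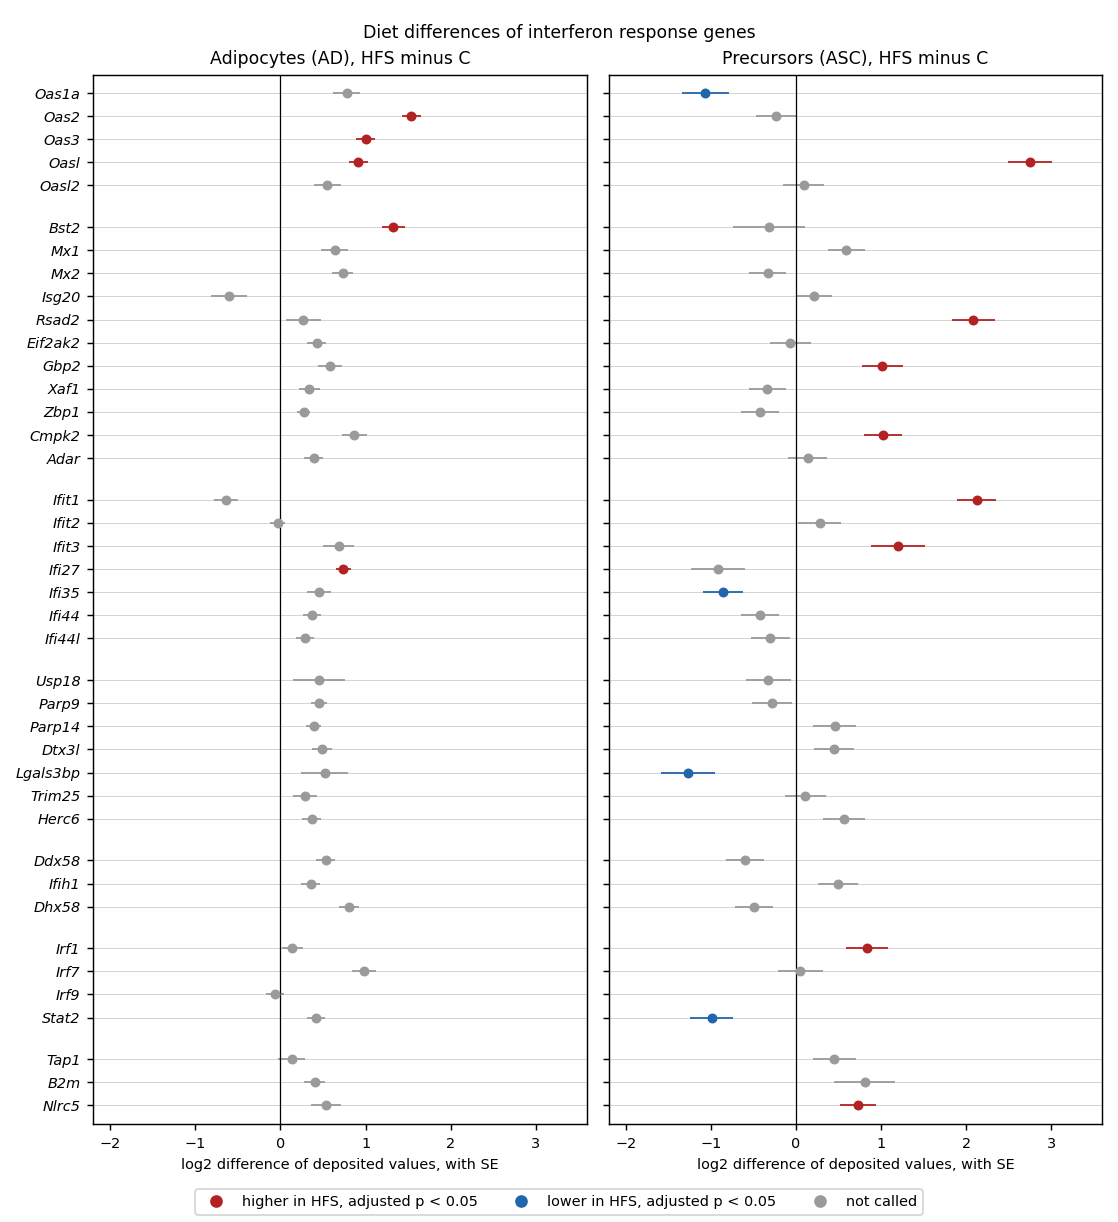
Log2 difference of the deposited values, HFS minus control, with its standard error, for each member in adipocytes (left panel) and in stem cells (right panel), grouped by role and coloured by call. In adipocytes 36 of 40 points lie right of 0, and in stem cells the points spread from -1.27 for Lgals3bp to 2.75 for Oasl.

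The promoters of 5 called members are shown so that their interferon elements can be read beside the values. RefSeq promoters of the GRCr8 build, from 250 bases before to 50 bases after the gene start, were found for 30 members, a build other than those the submitters name. The ISRE was searched as GAAANNGAAA, which reads TTTCNNTTTC on the other strand, and the GAS as TTCNNNGAA, which is its own reverse complement, with overlapping matches counted. An ISRE was held by 20 of the 30 members (66.7%), against 3.92% of 33469 promoters of the same length, and a GAS by 6 of 30 (20%), against 8.87%. Capitals mark the matched letters in the promoters, each written 5′ to 3′ on the strand of its gene. Oasl (chr12:47356243-47356542, minus strand) and Rsad2 (chr6:48788071-48788370, minus strand) were called higher in HFS stem cells, Oas1a (chr12:41330216-41330515, plus strand) and Lgals3bp (chr10:104127799-104128098, minus strand) were called lower there, and Ifi27 (chr6:128355062-128355361, plus strand) was called higher in HFS adipocytes.
Oasl: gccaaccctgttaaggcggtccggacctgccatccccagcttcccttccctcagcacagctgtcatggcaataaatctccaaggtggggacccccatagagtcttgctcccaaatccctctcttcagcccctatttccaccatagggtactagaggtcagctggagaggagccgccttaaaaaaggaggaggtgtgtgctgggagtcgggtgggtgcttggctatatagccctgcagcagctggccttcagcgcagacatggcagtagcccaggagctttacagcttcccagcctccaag
Rsad2: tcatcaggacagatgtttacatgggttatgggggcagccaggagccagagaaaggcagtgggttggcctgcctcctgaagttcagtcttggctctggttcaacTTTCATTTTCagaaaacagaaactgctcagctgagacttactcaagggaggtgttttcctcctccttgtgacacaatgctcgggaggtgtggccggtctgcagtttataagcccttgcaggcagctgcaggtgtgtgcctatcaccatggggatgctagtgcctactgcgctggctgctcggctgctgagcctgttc
Oas1a: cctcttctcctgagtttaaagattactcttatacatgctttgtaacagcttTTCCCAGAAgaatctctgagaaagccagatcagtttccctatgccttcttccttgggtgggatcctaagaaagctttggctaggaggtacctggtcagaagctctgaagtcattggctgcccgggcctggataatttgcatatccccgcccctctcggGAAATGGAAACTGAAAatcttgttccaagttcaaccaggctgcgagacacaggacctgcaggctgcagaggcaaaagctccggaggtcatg
Lgals3bp: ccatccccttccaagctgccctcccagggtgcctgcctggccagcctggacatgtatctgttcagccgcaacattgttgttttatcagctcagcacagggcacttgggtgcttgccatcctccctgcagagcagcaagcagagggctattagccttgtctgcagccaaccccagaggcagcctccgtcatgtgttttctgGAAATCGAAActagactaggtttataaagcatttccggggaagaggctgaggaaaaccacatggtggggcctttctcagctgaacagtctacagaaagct
Ifi27: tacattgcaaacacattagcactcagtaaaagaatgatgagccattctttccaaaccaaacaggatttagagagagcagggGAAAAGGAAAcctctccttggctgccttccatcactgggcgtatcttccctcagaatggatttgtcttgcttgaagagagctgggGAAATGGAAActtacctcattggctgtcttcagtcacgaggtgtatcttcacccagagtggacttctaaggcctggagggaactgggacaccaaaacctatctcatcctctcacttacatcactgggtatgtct
The Oasl window holds neither set of letters. Counted from the gene start as 0, Rsad2 holds 1 ISRE match at positions -147 to -138, and Lgals3bp holds 1 at -50 to -41. Oas1a holds 2 overlapping ISRE matches, which begin at -41 and -35, and 1 GAS match at -199 to -191. Ifi27 holds 2 ISRE matches, which begin at -169 and -84. An ISRE match was present in 3 of the 6 members called higher in HFS stem cells that had an entry, in 2 of the 4 called lower there, and in 3 of the 4 called higher in HFS adipocytes. Matches are letters only and show no binding.

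**Figure D2:**
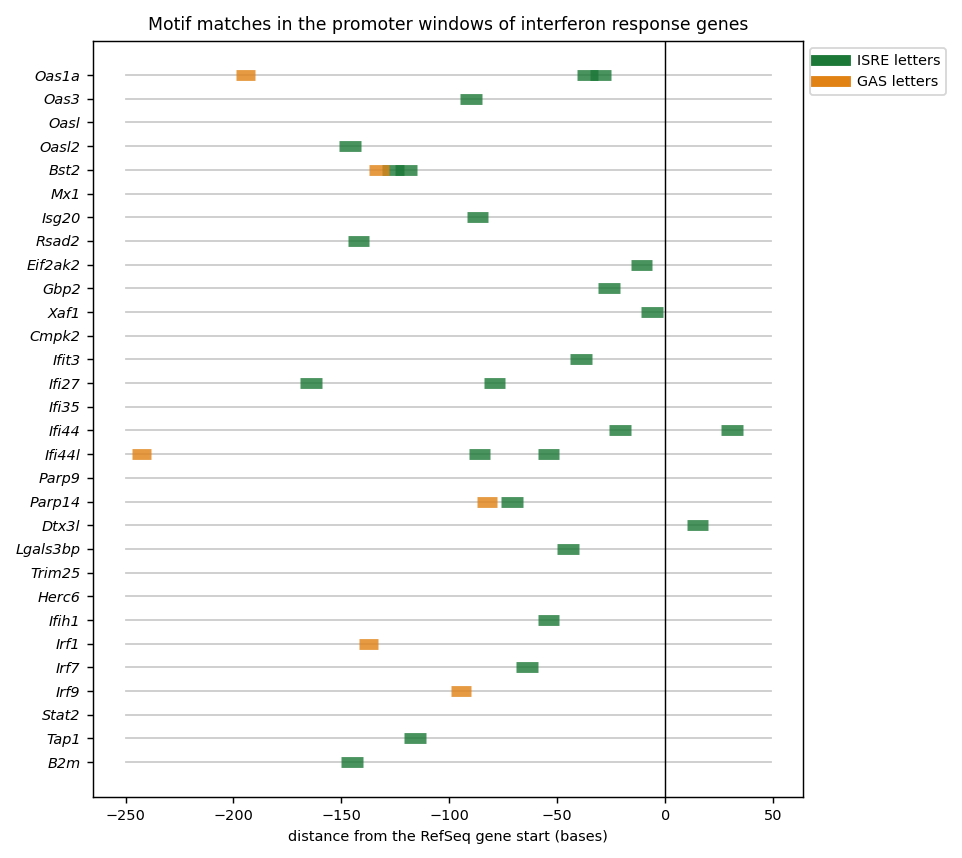
Position of ISRE and GAS letter matches in the promoter windows of the members, in bases from the gene start (0). Matches lie on both sides of the start, and 20 of the 30 members have at least 1 ISRE match.

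The oligoadenylate synthetases make short adenylate chains that switch on the nuclease RNase L. They held 3 of the 5 calls in adipocytes (60% of the 5 genes of the family, against 1.31% of all genes). Oas2 had 275 and 252 normalized counts in HFS adipocytes, against 11.4 and 18.7 in control adipocytes. It was 17.5-fold higher in HFS, with both HFS libraries far above both controls (log2 difference 1.54 ± 0.11 (SE), adjusted p = 0.0248). Oas3, the largest protein of the family in humans, had 142 and 106 normalized counts in HFS adipocytes, against 13.9 and 9.74 in control adipocytes, a 10.5-fold rise (log2 difference 1.00 ± 0.11 (SE), adjusted p = 0.0432). Oasl, a synthetase-like protein without synthetase activity in humans, had 235 and 252 normalized counts in HFS adipocytes, against 59.5 and 69.0 in control adipocytes, a 3.79-fold rise (log2 difference 0.92 ± 0.11 (SE), adjusted p = 0.0472). In all 3 the HFS libraries stood clear of the control libraries. The other 2 of the family were not called: Oas1a had 367 and 396 normalized counts in HFS adipocytes, against 192 and 123 in control adipocytes (adjusted p = 0.128), and Oasl2 had 1225 and 1327 normalized counts in HFS adipocytes, against 941 and 690.1 in control adipocytes (adjusted p = 0.245). Both had HFS libraries above control libraries.

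The same family went in both directions in stem cells. Oasl had 1219 and 1436 normalized counts in HFS stem cells, against 128 and 158 in control stem cells, the highest log2 difference of any member and 9.28-fold higher (log2 difference 2.75 ± 0.26 (SE), adjusted p = 3.64e-05). Oas1a had 30.6 and 10.9 normalized counts in HFS stem cells, against 136 and 56.5 in control stem cells, 4.65-fold lower in HFS (log2 difference -1.07 ± 0.28 (SE), adjusted p = 0.0168). The value of 10.9 is 3 reads, the floor of that library, and both HFS libraries lay below both controls. Oas2, the gene with the largest rise in adipocytes, had 14.3 and 3.63 normalized counts in HFS stem cells, against 18.5 and 11.7 in control stem cells, where the HFS libraries held 23 and 1 reads (adjusted p = 0.508). Oasl2, the neighbour of Oasl on chromosome 12, had 226 and 170.4 normalized counts in HFS stem cells, against 168 and 195 in control stem cells (adjusted p = 0.823), with the groups overlapping. Oas genes are close copies, and reads shared between them could have been split by the counting.

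Of the 11 GTPases, restriction factors and related antiviral proteins, 1 was called in adipocytes (9.09%, against 1.31% of all genes called higher). In stem cells 3 were called (27.3%, against 9.41%), and all these calls were higher in HFS. Bst2, tetherin, which holds budding virions at the cell surface, had 2678 and 2879 normalized counts in HFS adipocytes, against 1100.3 and 886 in control adipocytes. Both HFS libraries were above both controls, and it was 2.80-fold higher (log2 difference 1.32 ± 0.13 (SE), adjusted p = 0.0351). In stem cells it had 1710.5 and 1048 normalized counts in HFS stem cells, against 984 and 2862 in control stem cells, and there 1 control library lay above and 1 below both HFS libraries (adjusted p = 0.641). Rsad2, viperin, which makes a chain-terminating nucleotide that stops viral RNA synthesis, had 188 and 301 normalized counts in HFS stem cells, against 11.1 and 28.2 in control stem cells. It was 12.4-fold higher in HFS stem cells (log2 difference 2.08 ± 0.26 (SE), adjusted p = 1.82e-04), with HFS libraries clear of controls. Cmpk2, the nucleotide kinase next to Rsad2 on chromosome 6 that feeds the same reaction, had 90.4 and 68.9 normalized counts in HFS stem cells, against 13.0 and 20.6 in control stem cells, a 4.74-fold rise (log2 difference 1.02 ± 0.22 (SE), adjusted p = 0.00641).

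Neither gene of the pair was called in adipocytes. Rsad2 had 89.6 and 69.4 normalized counts in HFS adipocytes, against 79.8 and 22.7 in control adipocytes, and the groups overlapped (adjusted p = 0.624). Cmpk2 had 324 and 360.0 normalized counts in HFS adipocytes, against 96.2 and 141 in control adipocytes, with both HFS libraries above both controls (adjusted p = 0.0811). Gbp2, a guanylate-binding GTPase that coats intracellular pathogens, had 423 and 352 normalized counts in HFS stem cells, against 158 and 160.5 in control stem cells, 2.43-fold higher (log2 difference 1.01 ± 0.24 (SE), adjusted p = 0.0112), and 2389 and 2228 normalized counts in HFS adipocytes, against 1312 and 1658 in control adipocytes (adjusted p = 0.179). Its libraries did not overlap in either cell type. The dynamin-like GTPases Mx1 and Mx2, which lie with 1 gene between them on chromosome 11, were called in neither table. Mx1 had 71.7 and 58.0 normalized counts in HFS stem cells, against 24.1 and 30.9 in control stem cells (adjusted p = 0.0698), and Mx2 had 47.4 and 54.4 normalized counts in HFS stem cells, against 87.1 and 67.7 in control stem cells (adjusted p = 0.310). HFS libraries were thus above controls for Mx1 and below them for Mx2.

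In adipocytes both Mx genes had HFS libraries above controls: Mx1 had 219 and 242 normalized counts in HFS adipocytes, against 72.2 and 125 in control adipocytes, and Mx2 had 348 and 380.3 normalized counts in HFS adipocytes, against 167 and 144 in control adipocytes (adjusted p = 0.182 for Mx1 and 0.0841 for Mx2). Isg20, an exonuclease of single-stranded RNA, was the exception of the group in adipocytes, with 360.1 and 410.2 normalized counts in HFS adipocytes, against 534 and 858 in control adipocytes (adjusted p = 0.318). Its HFS libraries lay below its controls, while in stem cells they lay above, at 19.3 and 21.8 normalized counts in HFS stem cells, against 16.7 and 9.86 in control stem cells. Zbp1, a sensor of Z-form nucleic acid, was below the floor of 3 reads in HFS stem cells. There it was covered by 2 and 1 reads, against 15 and 19 in control stem cells. In adipocytes its HFS libraries were above its controls, at 26.1 and 29.9 normalized counts in HFS adipocytes, against 10.1 and 11.4 in control adipocytes (adjusted p = 0.237). The log2 differences of the remaining 3, Eif2ak2, Xaf1 and Adar, ran between 0.34 and 0.43 in adipocytes and between -0.34 and 0.14 in stem cells.

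Of the 7 IFIT and IFI genes, 1 was called higher in HFS adipocytes (14.3%, against 1.31% of all genes). In HFS stem cells 2 were called higher (28.6%, against 9.41%) and 1 lower (14.3%, against 9.70%). Ifit1, which binds RNA with a foreign 5′ end and blocks its translation, had 395 and 392 normalized counts in HFS stem cells, against 51.9 and 42.6 in control stem cells. It was 8.33-fold higher in HFS stem cells (log2 difference 2.12 ± 0.23 (SE), adjusted p = 7.31e-05), and the HFS libraries were close to each other. In adipocytes Ifit1 had 49.7 and 45.4 normalized counts in HFS adipocytes, against 177 and 115 in control adipocytes, with both HFS libraries below both controls (log2 difference -0.65 ± 0.14 (SE), adjusted p = 0.146). Ifit3, which stabilizes Ifit1 on RNA, had 605 and 656 normalized counts in HFS stem cells, against 147 and 370.3 in control stem cells, a 2.44-fold rise (log2 difference 1.20 ± 0.32 (SE), adjusted p = 0.0194). In adipocytes it had 218 and 219 normalized counts in HFS adipocytes, against 120.3 and 53.6 in control adipocytes, with HFS above control (adjusted p = 0.216). Ifit2, next to Ifit3 on chromosome 1, was called in neither table: it had 261 and 355 normalized counts in HFS stem cells, against 236 and 244 in control stem cells (adjusted p = 0.467) and 3407 and 3545 normalized counts in HFS adipocytes, against 3555 and 3566 in control adipocytes (adjusted p = 0.908).

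Of the IFI genes, Ifi27 was called higher in HFS adipocytes and Ifi35 lower in HFS stem cells. Ifi27, a small membrane protein of mitochondria, had 27538 and 28220.3 normalized counts in HFS adipocytes, against 17065 and 16146 in control adipocytes, 1.68-fold higher (log2 difference 0.74 ± 0.09 (SE), adjusted p = 0.0476). In stem cells it had 1739 and 1679 normalized counts in HFS stem cells, against 3677 and 2959.8 in control stem cells, both HFS libraries being below both controls (adjusted p = 0.0575). Ifi35, a leucine zipper protein, had 74.8 and 54.4 normalized counts in HFS stem cells, against 188 and 136 in control stem cells, 2.51-fold lower (log2 difference -0.85 ± 0.24 (SE), adjusted p = 0.0225). In adipocytes its HFS libraries were above its controls, at 1632 and 1649 normalized counts in HFS adipocytes, against 1007 and 1297 in control adipocytes (adjusted p = 0.277). The neighbours Ifi44 and Ifi44l had log2 differences of 0.37 and 0.29 in adipocytes and of -0.42 and -0.30 in stem cells, and neither was called.

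Of the 7 genes of the ISG15 system, the ubiquitin ligases and genes grouped with them, 1 was called, lower in HFS stem cells (14.3%, against 9.70% of all genes). The called gene, Lgals3bp, is a secreted galectin-binding glycoprotein, neither a ligase nor part of the ISG15 system. It had 604 and 369.9 normalized counts in HFS stem cells, against 1536 and 993 in control stem cells. Both HFS libraries were below both controls, 2.60-fold lower on average (log2 difference -1.27 ± 0.32 (SE), adjusted p = 0.0139). In adipocytes it had 23585 and 22326 normalized counts in HFS adipocytes, against 21223 and 11996 in control adipocytes, where HFS libraries were above but the controls lay far apart (adjusted p = 0.500). The other 6 were Usp18, which strips ISG15 from proteins and damps receptor signalling, the ligases Trim25, Herc6 and Dtx3l, and Parp9 and Parp14 of the ADP-ribosyltransferase family. Their log2 differences ran between 0.29 and 0.49 in adipocytes and between -0.32 and 0.56 in stem cells. Parp9, Dtx3l and Parp14 lie side by side on chromosome 11, and in stem cells Parp9 had its HFS libraries below its controls (178 and 196 normalized counts in HFS stem cells, against 239.9 and 239 in control stem cells), while Dtx3l (69.8 and 112 normalized counts in HFS stem cells, against 61.1 and 43.5 in control stem cells) and Parp14 (297 and 344 normalized counts in HFS stem cells, against 258 and 181 in control stem cells) had them above.

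Of the transcription factors, Irf1 was called higher and Stat2 lower in HFS stem cells. Stat2, a subunit of the type I interferon complex, had 157 and 102 normalized counts in HFS stem cells, against 345 and 284 in control stem cells. Both HFS libraries were far below both controls, 2.43-fold lower (log2 difference -0.99 ± 0.25 (SE), adjusted p = 0.0151). In adipocytes Stat2 had 9946 and 9640.4 normalized counts in HFS adipocytes, against 7812 and 6806 in control adipocytes, with HFS above control (adjusted p = 0.195). Irf1, an activator that interferon gamma and NF-kB induce, had 355 and 243 normalized counts in HFS stem cells, against 133 and 143 in control stem cells, 2.16-fold higher (log2 difference 0.84 ± 0.25 (SE), adjusted p = 0.0317), and 2032 and 1992 normalized counts in HFS adipocytes, against 1989 and 1637 in control adipocytes (adjusted p = 0.684). In both tables its HFS libraries stood above its controls, in adipocytes by a small margin.

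Irf7, which amplifies type I interferon production, had 2245 and 2150.3 normalized counts in HFS adipocytes, against 1142 and 897 in control adipocytes. The ratio of means was 2.16-fold and the groups did not overlap, but the difference did not pass the test (log2 difference 0.98 ± 0.14 (SE), adjusted p = 0.0607). In stem cells it had 458 and 406 normalized counts in HFS stem cells, against 491 and 347 in control stem cells, with the groups overlapping (adjusted p = 0.917). Irf9, the DNA-binding part of the type I complex, had 35.8 and 23.9 normalized counts in HFS adipocytes, against 41.8 and 29.2 in control adipocytes, also overlapping (adjusted p = 0.832).

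The cytosolic RNA sensors were called in neither table taken alone. Ddx58 (RIG-I), which recognises RNA with a 5′ triphosphate, had 2711 and 2668 normalized counts in HFS adipocytes, against 1935 and 1668 in control adipocytes (adjusted p = 0.141) and 60.5 and 36.3 normalized counts in HFS stem cells, against 99.1 and 97.3 in control stem cells (adjusted p = 0.0801). Dhx58 (LGP2), a regulator of the other sensors, had 1105 and 1068 normalized counts in HFS adipocytes, against 513 and 571 in control adipocytes (adjusted p = 0.0660) and 69.2 and 61.6 normalized counts in HFS stem cells, against 104 and 126 in control stem cells (adjusted p = 0.134). For both genes the HFS libraries were above the controls in adipocytes and below them in stem cells. Ifih1 (MDA5), which binds long double-stranded RNA, had its HFS libraries above its controls in both, at 2393 and 2400.2 normalized counts in HFS adipocytes, against 1731 and 1936 in control adipocytes (adjusted p = 0.256) and 142 and 102 normalized counts in HFS stem cells, against 57.4 and 83.4 in control stem cells (adjusted p = 0.159).

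Class I antigen presentation was represented by 3 members, of which 1 was called, higher in HFS stem cells (33.3%, against 9.41% of all genes). Nlrc5, the transactivator of class I genes, had 68.6 and 54.4 normalized counts in HFS stem cells, against 18.5 and 20.6 in control stem cells, 3.14-fold higher (log2 difference 0.73 ± 0.21 (SE), adjusted p = 0.0292), and 1090.0 and 1176 normalized counts in HFS adipocytes, against 858 and 598 in control adipocytes (adjusted p = 0.286). Its HFS libraries were above its controls in both cell types. B2m, the light chain of class I molecules, made up 42.2% of the summed normalized counts of the members in HFS adipocytes and 44.3% in control adipocytes, and 43.9% in HFS stem cells and 29.8% in control stem cells. It had 88711 and 90203 normalized counts in HFS adipocytes, against 72024 and 63451 in control adipocytes (adjusted p = 0.260) and 7474 and 8525 normalized counts in HFS stem cells, against 4806 and 4269 in control stem cells (adjusted p = 0.132). Tap1, the peptide transporter, had 3155 and 3072 normalized counts in HFS adipocytes, against 3273 and 2437 in control adipocytes, with the groups overlapping (adjusted p = 0.767), and 428 and 449.7 normalized counts in HFS stem cells, against 312 and 295 in control stem cells, with HFS above control (adjusted p = 0.220).

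**Figure D3:**
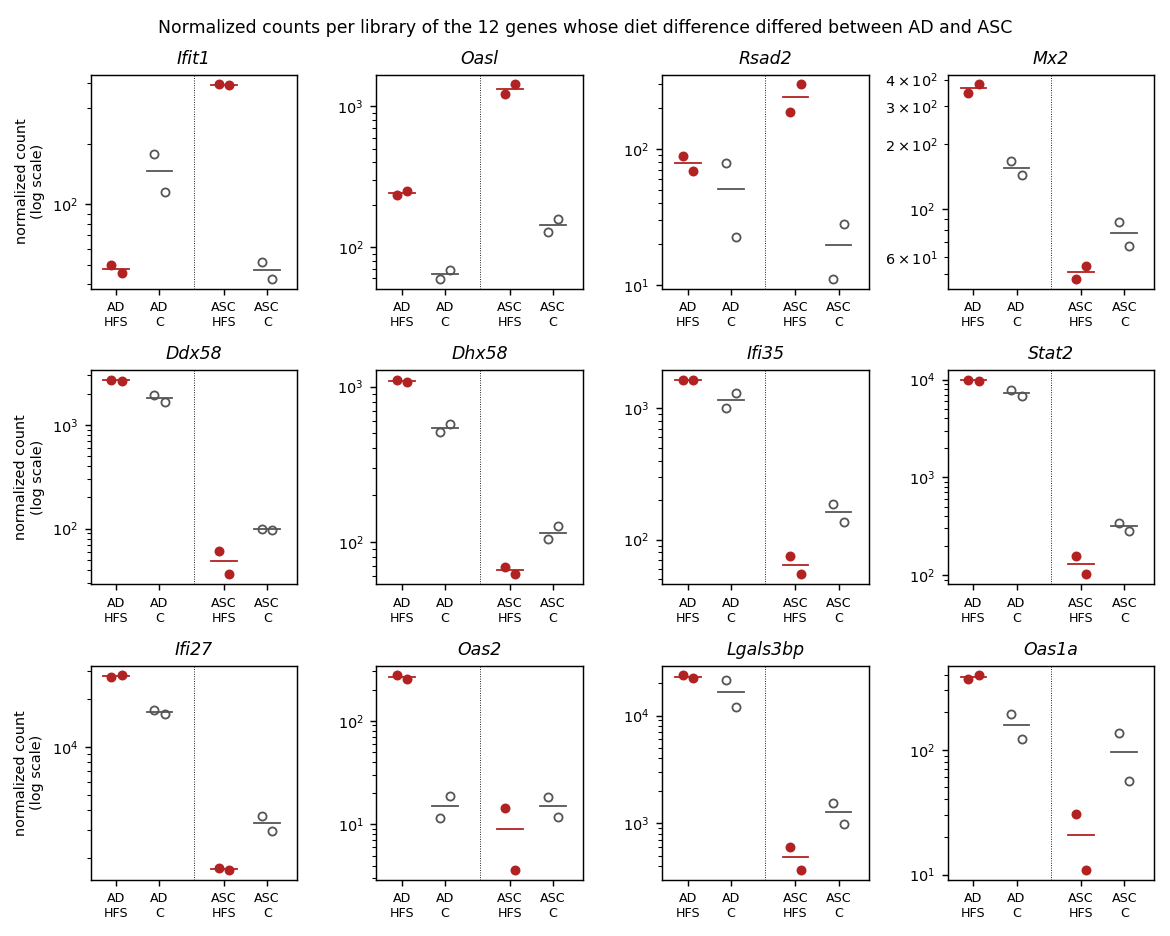
Normalized counts (log axis) of the members whose diet difference was called different between adipocytes and stem cells, each point a library and each line a group mean, with adipocytes and stem cells normalized in separate tables and the axis range set for each gene. Ifit1 has HFS below control in adipocytes and above it in stem cells, and Stat2, Lgals3bp and Oas1a show the opposite.

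Whether diet moved a member differently in adipocytes than in stem cells was tested as the diet difference in adipocytes minus that in stem cells, in 1 limma fit of the 8 libraries over 14018 shared genes. That fit gave each gene 1 spread for both cell types, though their depths differed greatly. The precision can thus be overstated: for Oasl its SE was 0.24, against 0.26 in stem cells alone. Of the 38 members in both tables, 12 were called, 3 with the difference lower in adipocytes (7.89%, against 4.93% of all genes) and 9 with it higher (23.7%, against 7.53%). The largest was Ifit1, at -2.77 ± 0.24 (SE, adjusted p = 0.00105), followed in that direction by Oasl at -1.84 ± 0.24 (SE, adjusted p = 0.00359) and Rsad2 at -1.81 ± 0.36 (SE, adjusted p = 0.0146). In the other direction stood Oas1a at 1.84 ± 0.38 (SE, adjusted p = 0.0176), Lgals3bp at 1.78 ± 0.44 (SE, adjusted p = 0.0315) and Oas2 at 1.77 ± 0.27 (SE, adjusted p = 0.00584). Ifi27 followed at 1.66 ± 0.27 (SE, adjusted p = 0.00740) and Stat2 at 1.41 ± 0.27 (SE, adjusted p = 0.0131). The remaining 4 were Ifi35, Dhx58, Ddx58 and Mx2, between 1.06 and 1.31. Oasl differed in size only, being called higher in both tables, and it was the only member called in both. Of the other called members, 3 in both tables were called in adipocytes alone (Oas2, Bst2 and Ifi27) and 11 in stem cells alone. A call in 1 cell type alone is not a call of a difference between them. The test of the difference did not call Bst2 (adjusted p = 0.0871), Ifit3 (0.454), Irf1 (0.117), Gbp2 (0.260), Cmpk2 (0.720) or Nlrc5 (0.665).

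Both diet differences were above 0 in 18 of the 38 members, the adipocyte difference was above 0 and the stem cell difference below 0 in 17, and the reverse held in 3, Ifit1, Ifit2 and Isg20. Limma-voom on the recovered reads called 9 of the 12, leaving out Oasl (adjusted p = 0.0616), Rsad2 (0.105) and Lgals3bp (0.0528). The tables compress low values unequally, with a lowest value of 107 in adipocytes and 34.7 in stem cells. The count of calls, among the members and among all genes, also depended on which library was left out.

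The genes upstream were read from lists of the pathway. Interferon ligands were barely detected: Ifne had 1 and 1 reads in HFS adipocytes, against 2 and 6 in control adipocytes, Ifnk had 2 and 2 reads in HFS adipocytes, against 5 and 13 in control adipocytes, and Ifnb1 had 10 and 0 reads in HFS stem cells, against 1 and 0 in control stem cells. The other ligands of the list of 11 were not analysed here. Of the 5 receptor chains analysed, 0 were called in adipocytes and 3 were called higher in stem cells (60%, against 9.41% of all genes). Ifnar2, of the type I receptor, had 478 and 620.1 normalized counts in HFS stem cells, against 245 and 282 in control stem cells, 2.09-fold higher (adjusted p = 0.0273). Ifngr2, of the interferon gamma receptor, had 243 and 308 normalized counts in HFS stem cells, against 155 and 113 in control stem cells, 2.06-fold higher (adjusted p = 0.0382). Ifnlr1, of the interferon lambda receptor, had 179 and 254 normalized counts in HFS stem cells, against 81.5 and 109 in control stem cells, 2.27-fold higher (adjusted p = 0.0297). For each of the 3 the HFS libraries stood above the controls.

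Ifnar1 and Ifngr1, the other chains of the type I and interferon gamma receptors, were not called. Ifnar1 had 622 and 606 normalized counts in HFS stem cells, against 506 and 625 in control stem cells (adjusted p = 0.803), and Ifngr1 had 1006 and 772 normalized counts in HFS stem cells, against 1334 and 1374 in control stem cells (adjusted p = 0.179). In adipocytes the log2 differences of the 5 chains were 0.34 for Ifnar1, -0.09 for Ifnar2, -0.20 for Ifngr1, 0.02 for Ifngr2 and -0.22 for Ifnlr1.

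Of the adaptors and kinases of nucleic acid sensing, 2 of 18 were called higher in adipocytes (11.1%, against 1.31% of all genes). In stem cells 2 of 17 were called lower (11.8%, against 9.70%), a share near that of all genes. The endosomal RNA receptor Tlr7 had 4232 and 4748 normalized counts in HFS adipocytes, against 382 and 577 in control adipocytes, 9.36-fold higher (adjusted p = 0.0248), and the endosomal DNA receptor Tlr9 had 73.3 and 75.3 normalized counts in HFS adipocytes, against 5.06 and 8.12 in control adipocytes, 11.3-fold higher (adjusted p = 0.0400). In stem cells Ikbke, a kinase that activates Irf3 and Irf7, had 41.2 and 14.5 normalized counts in HFS stem cells, against 134 and 173 in control stem cells, 5.52-fold lower (adjusted p = 0.00190). Rnaseh2b, of the nuclease that clears RNA from DNA, had 34.3 and 7.25 normalized counts in HFS stem cells, against 81.5 and 77.6 in control stem cells, 3.83-fold lower (adjusted p = 0.0154), the second HFS library with 2 reads. Of the 6 negative regulators, 1 was called higher in adipocytes (16.7%, against 1.31% of all genes) and 2 in stem cells (33.3%, against 9.41%). The others were not called. In adipocytes it was Ptpn6, a phosphatase of haematopoietic cells, at 3686 and 3386 normalized counts in HFS adipocytes, against 1062 and 1358 in control adipocytes (adjusted p = 0.0351). In stem cells Socs1, which blocks the receptor kinases, had 185 and 250.2 normalized counts in HFS stem cells, against 28.7 and 48.4 in control stem cells, 5.64-fold higher (adjusted p = 7.80e-04), and Tnfaip3 (A20), a brake on NF-kB, had 506 and 754 normalized counts in HFS stem cells, against 105 and 106 in control stem cells, 5.99-fold higher (adjusted p = 2.43e-04).

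A wider list of interferon-stimulated genes, which also holds the member Ifih1, was counted in the same way. In adipocytes 45 of 52 had a difference above 0 (86.5%, against 47.8% of all genes) and 1 was called higher (1.92%, against 1.31%), the GTPase Ifi47, at 4295 and 4301 normalized counts in HFS adipocytes, against 1839.7 and 2097 in control adipocytes (adjusted p = 0.0351). In stem cells 23 of 51 had a difference above 0 (45.1%, against 46.3% of all genes), with 7 called higher (13.7%, against 9.41%) and 9 lower (17.6%, against 9.70%). On the log2 scale of the deposited values the largest differences were those of Plac8, which had 282 and 243 normalized counts in HFS stem cells, against 1724 and 923 in control stem cells (adjusted p = 7.87e-04), and Ube2l6, the enzyme that hands ISG15 to its ligase, which had 77.9 and 18.1 normalized counts in HFS stem cells, against 310.3 and 312 in control stem cells (adjusted p = 7.13e-04). Both were lower in HFS. Cxcl10, a chemokine for T cells, had 290.0 and 290.1 normalized counts in HFS stem cells, against 23.2 and 57.4 in control stem cells (adjusted p = 2.88e-04), and Cd274 (PD-L1), a T cell inhibitory ligand, had 103 and 178 normalized counts in HFS stem cells, against 16.7 and 17.9 in control stem cells (adjusted p = 9.39e-04). Both were higher in HFS.

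Genes associated with interferon gamma formed a list of 12, of which 11 were analysed here. Of these, Socs1, Cxcl9 and Irf8 also stand in other lists. In stem cells 10 of 11 were called higher (90.9%, against 9.41% of all genes). On the log2 scale of the deposited values the largest differences were those of the class II genes RT1-Bb (12.4-fold, adjusted p = 2.20e-05), RT1-Da (11.3-fold, adjusted p = 4.03e-05), RT1-Db1 (9.37-fold, adjusted p = 2.51e-04) and RT1-Ba (9.49-fold, adjusted p = 8.53e-05). By the ratio of normalized counts Nos2, an inducible nitric oxide synthase with few reads in control stem cells, stood above them (15.9-fold, adjusted p = 2.79e-04). In adipocytes 4 of 11 were called higher (36.4%, against 1.31% of all genes): Irf8 (4.23-fold, adjusted p = 0.0470), RT1-Da (3.98-fold, adjusted p = 0.0401), Cd74 (2.43-fold, adjusted p = 0.0499) and RT1-Ba (3.67-fold, adjusted p = 0.0489). Class II genes and Irf8 are also expressed by macrophages, and 14 of the 23 macrophage markers were called higher in each table. Of the class I antigen processing genes, 0 of 16 were called in adipocytes and 1 of 15 in stem cells (6.67% lower, against 9.70% of all genes). This was the chaperone Calr, at 3622 and 3601 normalized counts in HFS stem cells, against 12468 and 6072 in control stem cells and lower in HFS (adjusted p = 0.0440).

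Summed over the list, the members took 0.217% and 0.219% of reads in HFS adipocytes, against 0.169% and 0.149% in control adipocytes, and 0.498% and 0.508% in HFS stem cells, against 0.492% and 0.465% in control stem cells. The groups did not overlap in either cell type. Without B2m the other 39 members took 0.125% and 0.126% in HFS adipocytes, against 0.0946% and 0.0827% in control adipocytes. In stem cells the direction turned: the other 37 took 0.293% and 0.271% in HFS stem cells, against 0.336% and 0.335% in control stem cells. Plasmacytoid dendritic cells are professional interferon producers. Of their 10 markers, 6 were analysed in adipocytes and 5 in stem cells, and these took 0.0107% to 0.0116% of reads in HFS adipocytes and 0.00482% to 0.00560% in control adipocytes, and 0.0444% to 0.0581% in HFS stem cells and 0.0417% to 0.0939% in control stem cells. Bst2, a member, belongs to that list. In adipocytes Bst2, Irf8, Tlr7 and Tlr9 of the list were called higher, while Tcf4 (2061 and 2124 normalized counts in HFS adipocytes, against 3199.5 and 2366 in control adipocytes) and Runx2 (375 and 432 normalized counts in HFS adipocytes, against 529 and 493 in control adipocytes) had both HFS libraries below both controls and were not called. T and NK cell markers took at most 0.00222% of reads in any library. No macrophage or plasmacytoid marker analysed was at 0 reads in a library, while 1 to 4 of the 9 T and NK cell markers analysed in stem cells were.

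**Figure D4:**
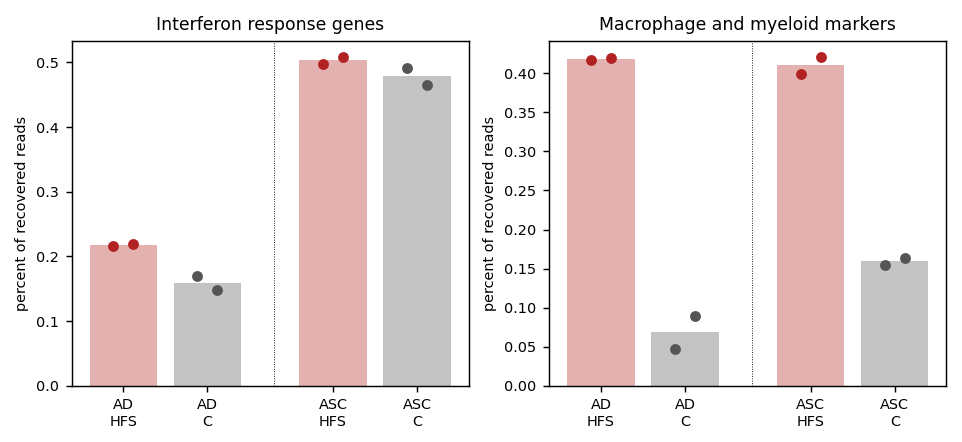
Percent of recovered reads taken by the interferon response genes (left panel) and by the macrophage and myeloid markers (right panel), each point a library and each bar the mean of 2. The macrophage share of HFS libraries stands well above that of control libraries in both cell types, while the interferon shares of the stem cell libraries lie close together, between 0.465% and 0.508%.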

How the data were processed

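RNA was sequenced as 50 bp paired-end reads, per the labels' protocols. Per the submitters' processing notes, the authors' tools were STAR, featureCounts, DESeq2 and FastQC, and the builds rn7 and mRatBN7.2. Annotation, strand setting and versions are not given in the sources used here, so overlapping or antisense genes cannot be told apart. The labels name both polyA RNA and an rRNA depletion kit. Each deposited value is a signal. As judged from the values themselves, it is 2 raised to the variance-stabilized, normalized count, made separately for adipocytes and stem cells. Undoing this gave whole reads for every gene and library, 100% of values within 1e-06. Those reads gave the depths, normalized counts and folds.

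The main test was limma-trend (limma 3.58.1, R 4.3.3), two-sided, on log2(deposited value + 1) with no filter on low values, HFS against C within each table, and Benjamini-Hochberg adjusted p under 0.05 over all its genes. With 2 libraries per group the spread was shared across genes. The difference between cell types was 1 limma-trend fit with 4 group means. The scripts were tested on simulated data. Every member is accounted for, and those called in any fit, the transcription factors and the RNA sensors are given per library. Of the pathway lists, up to 4 called genes with the largest log2 difference per list and table are named, and every ligand and receptor. The list of receptor kinases and transducers is not reported here. The members and lists were chosen with earlier results of these data known. Alternatives were other pseudocounts, filters and scalings, robust variances, limma-voom, the replicate number as a block and each library left out. The floor of 3 reads covers counting error only. Tables and plots were made with pandas 2.3.3, numpy 2.4.6 and matplotlib 3.10.9 under Python 3.11.15.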

Additional observations from a re-analysis of the deposited data

Results flagged for a closer look

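For 12 members the diet difference in adipocytes differed from that in stem cells by the test of the difference itself (limma, adjusted p under 0.05). The difference between the differences, on the log2 scale of the deposited values and as adipocytes minus stem cells, was -2.77 for Ifit1, -1.84 for Oasl and -1.81 for Rsad2, in which the diet difference was lower in adipocytes. It was 1.84 for Oas1a, 1.78 for Lgals3bp, 1.77 for Oas2, 1.66 for Ifi27, 1.41 for Stat2, 1.31 for Ifi35, 1.30 for Dhx58, 1.13 for Ddx58 and 1.06 for Mx2, in which it was higher. In these 9 the HFS mean was above the control mean in adipocytes and below it in stem cells. Of the 3 lower ones, Ifit1 changed sign the other way, and Oasl and Rsad2 were above 0 in both. The separate tables compress low values unequally. On the recovered reads, which carry no such compression, log2 of the normalized counts kept 10 of the 12 calls and limma-voom kept 9.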

How the results depend on the processing

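No call changed direction under any alternative run. In stem cells the 12 calls were kept, with 12 to 17 members called, under other pseudocounts, a count filter, upper quartile or quantile scaling, robust variances, limma-voom, log2 of recovered counts, the replicate block (12) and all 8 libraries in 1 fit. Leaving aside the count filter, 31.6% to 44.7% of members were called in these runs, against 16.1% to 26.8% of all genes. In adipocytes the 5 calls became 2 with a common upper quartile (5%, against 0.521% of all genes) and 3 with quantile normalization (7.5%, against 0.932%). They became 2 by limma-voom (5%, against 0.823%) and 2 on log2 of recovered counts (5%, against 0.614%). The replicate block gave 7 (17.5%, against 3.62% of all genes), adding Irf7 and Cmpk2. All 8 libraries in 1 fit gave 6 of the 38 members in both tables (against 3.02% of all 14018 shared genes). Oas3 and Irf9 were not in that fit. Robust variances called 10% of members, against 1.23% of all genes. Over all genes the block gave 599 higher and 62 lower in adipocytes, against 238 and 6 without it. The labels do not link the replicate numbers, whose deviations correlated at 0.00141 in adipocytes and -0.123 in stem cells. Pairing the stem cell numbers crosswise, chosen after seeing the data, gave 13 calls (34.2% of members, against 25.4% of all genes). Averaging the HFS libraries into 1, chosen after seeing how close they were, left no call in either cell type, among the members or all genes. With 1 value in the HFS group, the spread in that fit came from the control libraries alone.

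Leaving out 1 library gave 0 to 37 members called in adipocytes, with 7106 or 9830 of all genes called without a control library. It gave 0 without either HFS library, where 20% or 27.5% of members had an unadjusted p under 0.05, against 4.83% or 4.92% of all genes. It gave 0 in each stem cell run, where 18.4% to 36.8% of members did, against 16.2% to 31.7% of all genes, and 3 to 14 for the difference between cell types. That last count was 6 without control stem cell replicate 1, 7 without HFS stem cell replicate 2, and 6 and 3 without HFS adipocyte replicate 1 and 2. With 1 library left in a group, that library is assumed to vary like the other group. For the difference between cell types the other alternatives called 9 to 15. Leaving aside the count filter, these were 23.7% to 39.5% of members, against 9.26% to 12.8% of all genes. Only uncalled members changed sign. In adipocytes, with 1 library left out, log2 differences ran between -0.140 and 0.00715 for Irf9, between -0.00467 and 0.543 for Rsad2 and between -0.0677 and 0.329 for Tap1. In stem cells they ran between -0.0629 and 0.249 for Oasl2, between -1.06 and 0.422 for Bst2, between -0.163 and 0.268 for Irf7, between -0.663 and 0.0163 for Usp18, between -0.135 and 0.00505 for Eif2ak2 and between -0.137 and 0.357 for Trim25. Irf7 was also at -0.0297 there under quantile normalization. Leaving B2m out of the summed reads, chosen after seeing the data, turned the stem cell difference in share to -0.0532 percentage points, against 0.0246 with it.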
